A study of Rattus norvegicus with 19 samples.

Results

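Mast cells sorted from 4 tissues of newborn rats shared a small set of transcripts that were read heavily in every library. The core set holds the transcripts with at least 500 CPM (a transcript's estimated count divided by the library's total, times 1000000) in each of 19 libraries. It has 48 members of 29107 transcripts in the table, or 0.165% of them. The rule named 5 mitochondrial transcripts to be left out, and 2 of these (ENSRNOT00000046108.3 and ENSRNOT00000049683.3) would otherwise have met it. Membership was thus decided by the CPM values themselves, so the levels below are a description. The rule asked for no difference between groups, but its floor limits how far a member can fall in any library.

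All animals were wild-type rat pups perfused with saline, and the labels describe each library as an independent replicate of live single CD45-high, CD11b-negative, FcεRI-positive cells pooled from 6 animals. The groups at postnatal day 2 (PN2) were skin with 5 libraries, bone marrow with 4, hippocampus with 4 and hypothalamus with 2. Those at postnatal day 7 (PN7) were hippocampus with 3 and hypothalamus with 1, the latter without a replicate. The 6 animals of a pool share a library, and p-values therefore measure the spread from pool to pool. The total estimated count per library ran from 5495252 to 26394623, with the hypothalamus libraries of PN2 the shallowest, and 13403 to 19292 transcripts had any count. Every core transcript had at least 2835 estimated counts in every library, so error from counting reads alone is small. The sampling of molecules from the sorted cells was not measured. Library construction amplifies cDNA by PCR without molecular identifiers, and the counting intervals below cover counting error only.

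Mast cells are tissue-resident immune cells that bind IgE through the receptor FcεRI and store proteases, histamine and proteoglycan in granules. In most mammalian cells the most heavily read mRNAs come from genes for ribosomal proteins, translation factors, the actin cytoskeleton and iron storage, and in mast cells mRNAs for granule contents can join them. The rows carry Ensembl transcript identifiers without gene names, and 0 of them could be paired with a symbol in the RefSeq table used here. Which core transcripts belong to these classes was therefore not read, and neither were the markers of mast cells or of other cells that a sort could hold. In bulk libraries, fewer cells of a type and less RNA per cell cannot be told apart. Transcript lengths were not used either, so an order of CPM between transcripts is an order of reads and not of molecules.

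The core set took between 10.3% and 25.5% of the counts of a library, with a median of 14.5%. In bone marrow it summed to 10.6%, 10.3%, 11.3% and 11.99% of the counts of replicates 1 to 4, a mean of 11.0% ± 0.760 (SD, n = 4). These were the 4 lowest shares of all 19 libraries. In skin the mean was 15.0% ± 0.757 (SD, n = 5), with libraries from 14.5% to 16.3%. In hippocampus it was 14.4% ± 0.581 (SD, n = 4) at PN2 and 13.9% ± 0.493 (SD, n = 3) at PN7, and the libraries of both ages overlapped. The PN2 hypothalamus libraries stood at 16.3% and 25.5%, a mean of 20.9% ± 6.52 (SD, n = 2) whose spread was wider than in any other replicated group. The PN7 hypothalamus library stood at 13.3% (95% exact binomial interval 13.27% to 13.32%), below both PN2 libraries.

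Most of this difference between groups lay in 2 transcripts, which did not move together. ENSRNOT00000011342.5 and ENSRNOT00000067539.2 had the widest ranges of the core set, with highest to lowest library ratios of 63.0 and 46.6. Together they took 2.23% ± 0.405 of the counts in bone marrow (SD, n = 4), 6.00% ± 0.890 in skin (SD, n = 5) and 6.79% ± 0.505 in PN2 hippocampus (SD, n = 4). The other 46 transcripts took 8.81% ± 0.819 in bone marrow (SD, n = 4), 9.03% ± 0.495 in skin (SD, n = 5) and 7.61% ± 0.683 in PN2 hippocampus (SD, n = 4). In bone marrow, skin, PN2 hippocampus and PN2 hypothalamus, ENSRNOT00000067539.2 averaged 0.647%, 5.02%, 6.05% and 2.34%. ENSRNOT00000011342.5 averaged 1.58%, 0.984%, 0.743% and 11.8% in the same order. Over all 19 libraries the pair ran from 1.97% to 19.04%, while the other 46 stayed between 6.48% and 10.0%. The pair was chosen for its range in these libraries, so the narrower range of the rest was partly set in advance. The lowest value of the 46 came from hypothalamus replicate 2 of PN2, where the pair was highest.

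**Figure D1:**
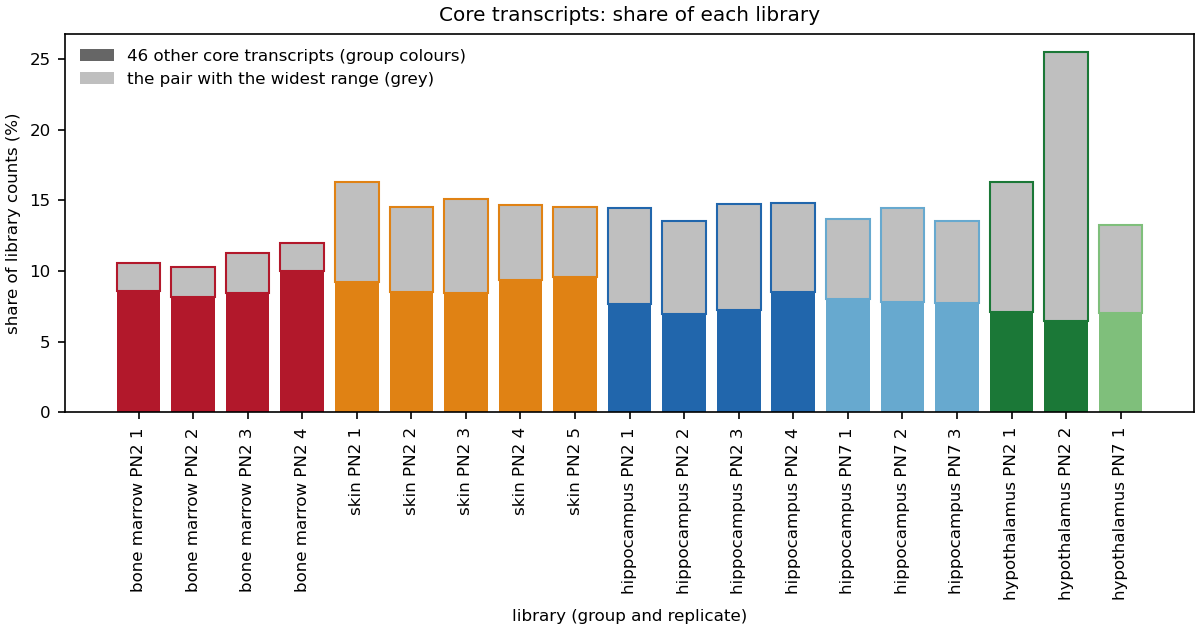
Share of each library's counts (%) taken by the core transcripts, for 19 libraries grouped by tissue and age. Coloured bars are 46 transcripts and grey bars on top are ENSRNOT00000011342.5 and ENSRNOT00000067539.2 together; the coloured part stays between 6.48% and 10.0%, and the grey part reaches 19.04% in hypothalamus PN2 replicate 2.

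ENSRNOT00000011342.5 had the highest mean of the 6 group means, at 38241 CPM, and was highest in hypothalamus. That mean counts each group alike, so each hypothalamus library weighs more than a library of a larger group. By the same measure ENSRNOT00000067539.2 came second, at 30761 CPM, but it led the core set in more libraries. ENSRNOT00000011342.5 held 68959 and 166441 CPM in the PN2 hypothalamus libraries, and 57457 CPM (95% exact binomial interval 57311 to 57603) in the PN7 library. Hippocampus held 6787, 6492, 7563 and 8871 CPM at PN2 and 19039, 29216 and 15462 CPM at PN7. Every hypothalamus library thus lay above every hippocampus library, and every PN7 hippocampus library above every PN2 one. The latter difference did not pass the edgeR test described below (log2 fold change 1.48, adjusted p = 0.0654). Bone marrow held 12357, 12881, 19526 and 18376 CPM, and skin had the widest ratio of highest to lowest library within a group, at 2643, 8981, 5721, 18280.2 and 13569 CPM. Skin therefore overlapped bone marrow, hippocampus PN2 and hippocampus PN7. It was the transcript with the most counts of all in each of the 3 hypothalamus libraries, and its share of the core counts was 42.3% and 65.2% in the PN2 pair and 43.2% in the PN7 library.

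ENSRNOT00000067539.2 was highest in PN2 hippocampus and skin. It held 61010.4, 59644, 67285 and 54014 CPM in PN2 hippocampus, and 68311, 51177, 60703, 34515 and 36249 CPM in skin. At PN7, hippocampus held 37471, 37042 and 42493 CPM, all below the PN2 libraries and within the range of skin, but the difference between the ages was not called (log2 fold change -0.69, adjusted p = 0.387, edgeR). The PN2 hypothalamus libraries held 22781 and 23942 CPM, below every hippocampus and skin library. Bone marrow held 7325, 8390, 8718 and 1467 CPM, and the PN7 hypothalamus library held 5051 CPM, within the bone marrow range. It led the core set in 12 libraries, which were all those of hippocampus and skin, whereas ENSRNOT00000011342.5 led in 5 and ENSRNOT00000080216.1 in 2.

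The next 4 transcripts by mean level had narrower ranges. ENSRNOT00000080216.1 was highest in bone marrow, at 14543, 13695, 14197 and 13180 CPM, above every other library. It averaged 8705 ± 1079 CPM in skin (SD, n = 5), 7783 ± 1014 CPM in PN2 hippocampus (SD, n = 4) and 7395 ± 603 CPM in PN7 hippocampus (SD, n = 3), and these 3 groups overlapped. ENSRNOT00000023037.5 was highest in skin, at 9345, 9543, 9625, 8745 and 8829 CPM, again above every other library. It averaged 6600 ± 250 CPM in PN2 hippocampus (SD, n = 4) and 3787 ± 196 CPM in PN2 hypothalamus (SD, n = 2), and these groups did not overlap.

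ENSRNOT00000085692.1 and ENSRNOT00000013159.5 set skin and PN7 hippocampus apart from the rest. ENSRNOT00000085692.1 held 12188, 8041, 8245, 8725 and 8843 CPM in skin, and 7062, 6998 and 8051 CPM in PN7 hippocampus. In PN2 hippocampus it held 3130.2, 2357, 2796.5 and 3303 CPM, near its mean of 2813 ± 621 CPM in bone marrow (SD, n = 4). ENSRNOT00000013159.5 held 9244, 5234, 5880, 5405 and 5491 CPM in skin and 6089, 6492 and 5776 CPM in PN7 hippocampus. These 8 libraries lay above all others for both transcripts. Bone marrow held only 757, 768, 763 and 877 CPM of ENSRNOT00000013159.5, close to the floor of the rule, and PN2 hippocampus held 2320.5, 1755, 1427 and 942 CPM.

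**Figure D2:**
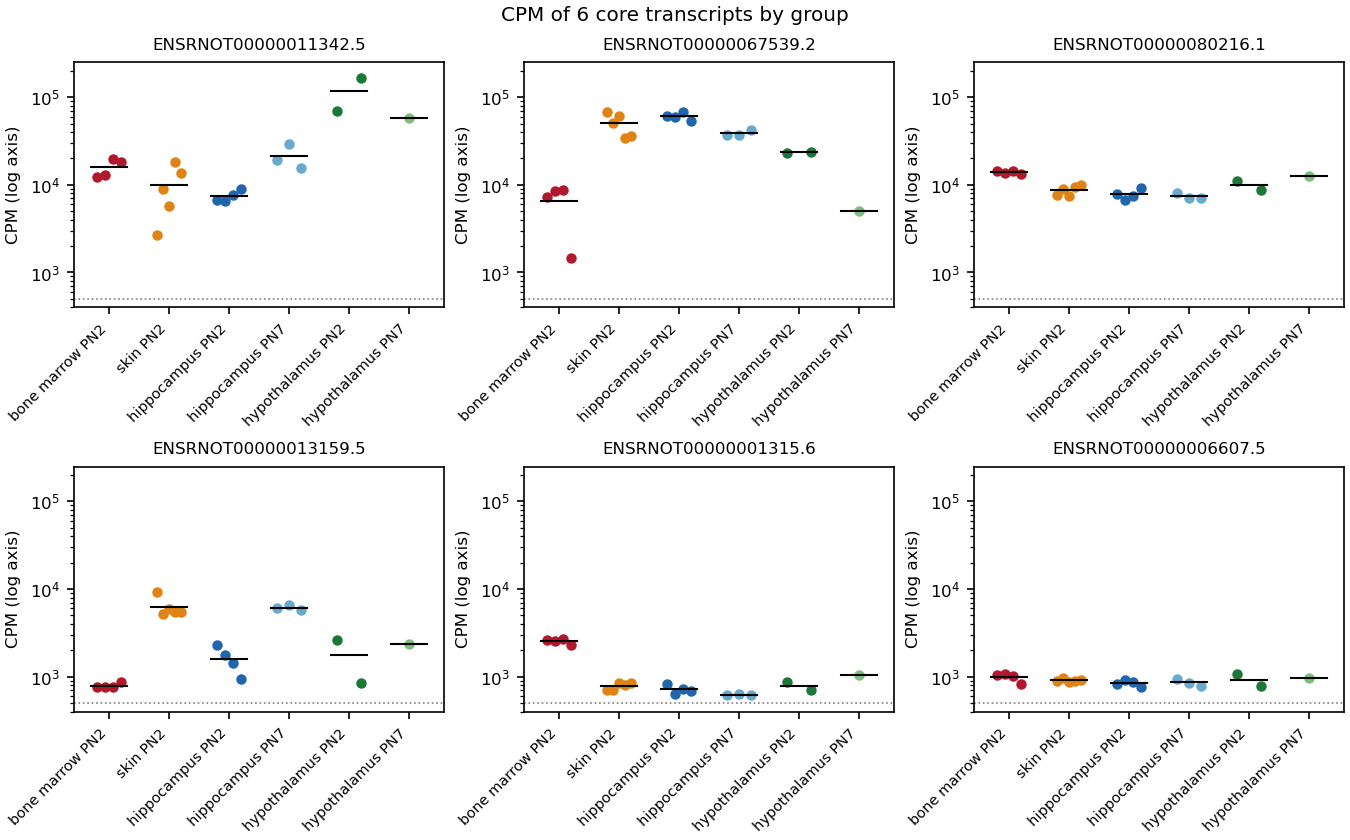
CPM on a log axis for 6 core transcripts in the 6 groups; points are libraries, black lines group means, and the dotted line the 500 CPM floor. ENSRNOT00000011342.5 is highest in hypothalamus, ENSRNOT00000067539.2 in hippocampus PN2 and skin, ENSRNOT00000001315.6 in bone marrow, and ENSRNOT00000006607.5 runs nearly level.

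Most core transcripts varied far less than these. The ratio of the highest to the lowest library had a median of 2.67 over the 48, with 10 transcripts under 2, 23 from 2 to under 4 and 15 at 4 or more. Between group means the median ratio was 1.88, with 26 transcripts under 2. The most even was ENSRNOT00000006607.5, which lay between 769 and 1082 CPM in all 19 libraries, a ratio of 1.41. ENSRNOT00000025916.5 came next, between 536 and 904 CPM and a ratio of 1.69. Both were chosen for their narrow range in these libraries, which favours a lack of calls. They were among the 17 core transcripts with a call in none of 7 pairwise comparisons, which are described below. The share of all transcripts without such a call is not given beside this number. None of these 17 passed the edgeR test of any difference among the 6 groups.

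Bone marrow was the group with the highest mean CPM for 22 of the 48 transcripts. After scaling by TMM (trimmed mean of M-values, edgeR's correction for library composition) it was highest for 15, and hippocampus PN2 rose from 7 to 12 such transcripts. A factor above 1 lowers a library's values on that scale. The factors ran from 1.03 to 1.22 in bone marrow and from 0.885 to 0.990 in PN2 hippocampus, and the PN7 hypothalamus library had 1.12. PN7 hippocampus had the lowest mean CPM for 16 transcripts, and 13 after scaling, while the lone PN7 hypothalamus library went from lowest for 10 to lowest for 18.

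Bone marrow replicate 4 stood apart within its group. It lay more than 1.5-fold above or below the mean of the other 3 bone marrow libraries in 18 of the 48 transcripts, against 2 or 3 for each of those. The median coefficient of variation of core transcripts in bone marrow was 19.3%, and 5.65% without that library. It was 7.50% in PN7 hippocampus, 11.9% in skin, 12.4% in PN2 hippocampus and 21.2% between the PN2 hypothalamus libraries. Numbers of calls without the libraries numbered 4 and 5 in the labels are given below where they moved.

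**Figure D3:**
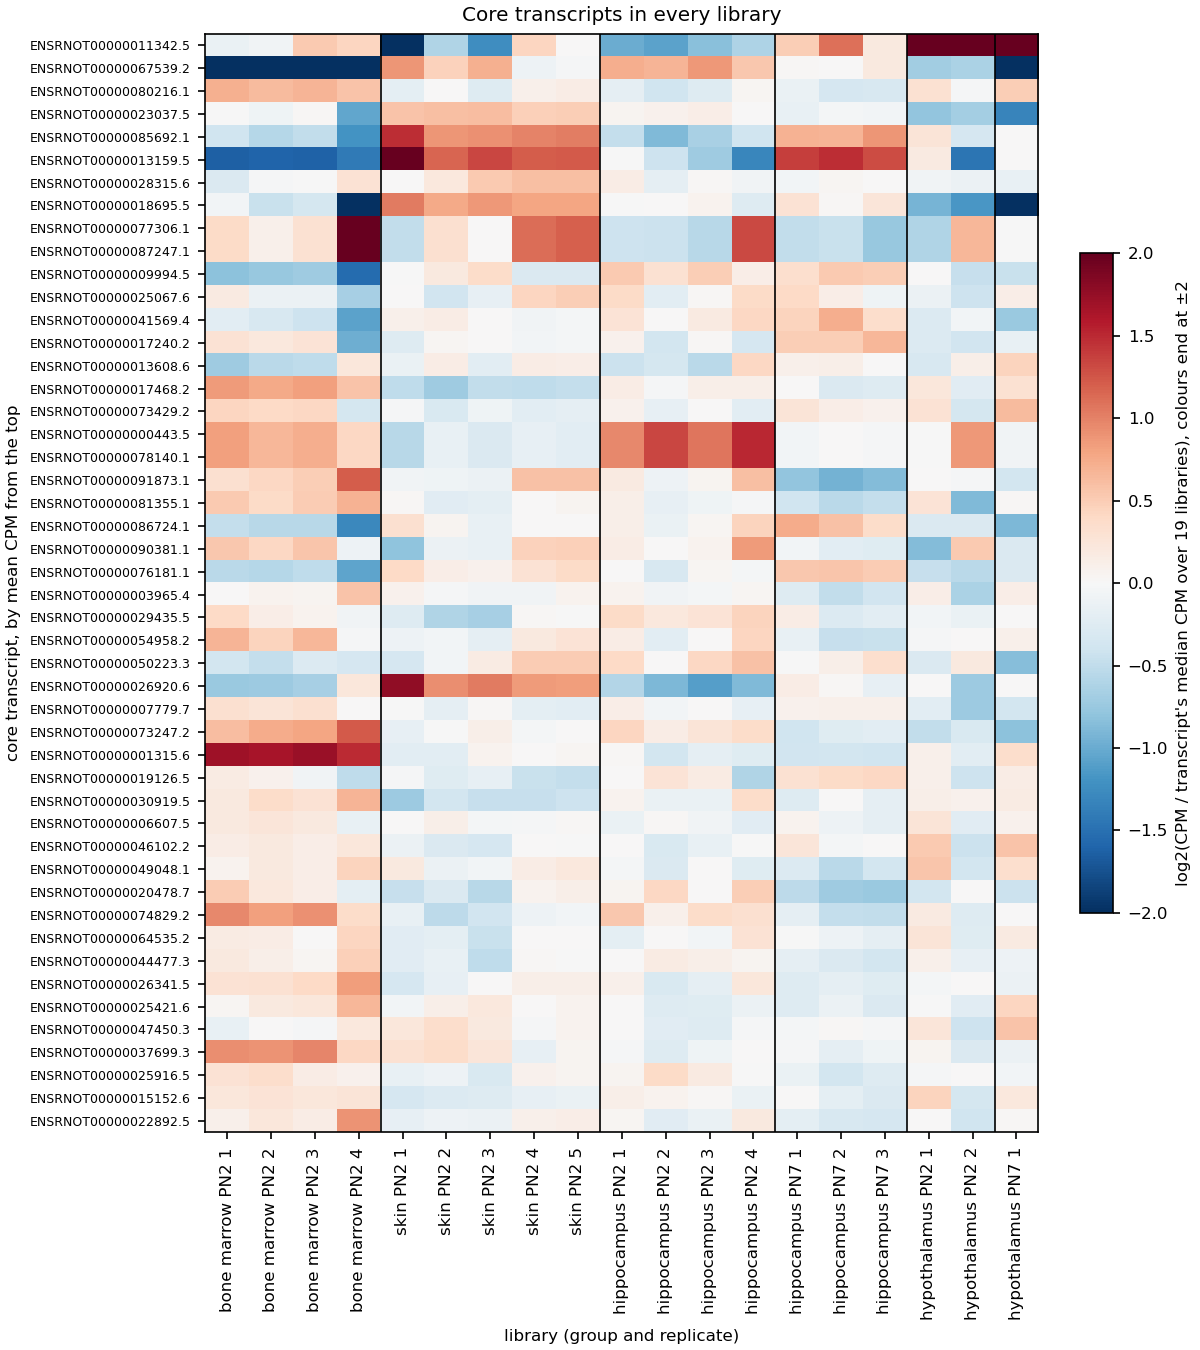
Heatmap of the 48 core transcripts (rows, by mean CPM) in 19 libraries (columns), as log2 of CPM over the transcript's median CPM; red is above and blue below the median, and colours end at ±2. Bone marrow replicate 4 differs visibly from bone marrow 1 to 3, as in the 18 transcripts off by 1.5-fold, and most transcripts toward the bottom vary little.

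Differences between groups were tested across all 20521 transcripts that passed a low-count filter, and all 48 core transcripts passed. A call is an adjusted p below 0.05 from edgeR's quasi-likelihood test, and fold changes are on the TMM scale, so they differ somewhat from ratios of CPM. Among the 6 groups 29 of the 48 core transcripts differed, 60.4% of them, against 50.3% of all transcripts. Comparisons that use the same libraries are given side by side and are not independent. Some refits below are given without the share of all transcripts called. From those counts a shift of the core set alone cannot be read.

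Skin and bone marrow differed in 25 of the 48 core transcripts, 13 higher and 12 lower in skin. That is 52.1%, against 34% of all transcripts tested, with 17.2% higher and 16.9% lower. The sizes were modest: 9 of the 25 differed by 2-fold or more (18.8% of the set, against 23.8% of all transcripts). The median size of a log2 fold change was 0.52 in the core set and 0.81 over all transcripts. The rule's floor in every library limits large falls, so smaller sizes were partly set in advance. The standard error was also smaller in the core set, with a median of 0.17 against 0.47, and this held in all 7 comparisons. ENSRNOT00000013159.5 rose most, with a log2 fold change of 3.15 with a standard error of 0.31 (adjusted p = 6.48e-07, edgeR), from 791 ± 57.4 CPM (SD, n = 4) to 6251 ± 1690.0 CPM (SD, n = 5). ENSRNOT00000067539.2 was 8.45-fold higher in skin (log2 fold change 3.08, adjusted p = 3.69e-05, edgeR). Without bone marrow replicate 4, its lowest library, the log2 fold change was 2.71.

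ENSRNOT00000001315.6 was the transcript with the largest fall. It held 2641, 2554, 2694 and 2302.5 CPM in bone marrow, and 706, 703, 856, 815 and 840.2 CPM in skin. The log2 fold change was -1.56 ± 0.11 (SE; adjusted p = 2.15e-08, edgeR), and the lowest bone marrow library lay far above the highest of the other tissues, 1041 CPM in PN7 hypothalamus. ENSRNOT00000017468.2 fell from 2514 ± 219 CPM in bone marrow (SD, n = 4) to 1029 ± 67.1 CPM in skin (SD, n = 5), with a log2 fold change of -1.15 with a standard error of 0.12 (adjusted p = 1.27e-06, edgeR). Without the libraries numbered 4 and 5 the number called was 30, with 23 of the 25 among them. The share of all transcripts in that refit is not given, so a shift of the core set alone cannot be read.

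PN2 hippocampus and bone marrow differed in 13 core transcripts, 9 higher and 4 lower in hippocampus. The share of 27.1% lies near the 28.7% of all transcripts, of which 15.8% were higher and 12.9% lower. ENSRNOT00000067539.2 rose most, with the libraries of both groups far apart. Its log2 fold change was 3.39 with a standard error of 0.46 (adjusted p = 2.51e-05, edgeR), and 3.03 without bone marrow replicate 4. ENSRNOT00000009994.5 followed, at 2831, 2418, 2766 and 2155 CPM in hippocampus and 1108, 1166, 1193 and 676 CPM in bone marrow. Its log2 fold change was 1.48 ± 0.22 (SE; adjusted p = 7.53e-05, edgeR). ENSRNOT00000001315.6 fell here too, to 829, 635, 723 and 686 CPM, a log2 fold change of -1.63 with a standard error of 0.12 (adjusted p = 3.99e-08, edgeR). ENSRNOT00000037699.3 had a mean of 1187 ± 198 CPM in bone marrow (SD, n = 4) and of 634 ± 48.2 CPM in hippocampus (SD, n = 4), a log2 fold change of -0.72 with a standard error of 0.17 (adjusted p = 0.00378, edgeR). Of the 13 calls, 5 differed by 2-fold or more, 10.4% of the set against 20.4% of all transcripts. With limma voom the number called was 25 of the 48, or 14 higher and 11 lower, against 46.5% of all transcripts.

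PN2 hippocampus and skin differed in 9 core transcripts, 6 higher and 3 lower in hippocampus. That is 18.8% of the set, against 8.76% of all transcripts, 5.29% higher and 3.46% lower. ENSRNOT00000000443.5 and ENSRNOT00000078140.1, whose values are identical in all libraries, rose most. Each held 2100.0, 2725, 2259 and 3067 CPM in hippocampus and 735, 975, 884, 961 and 935 CPM in skin, a log2 fold change of 1.56 with a standard error of 0.20 (adjusted p = 0.000108, edgeR). They count as 2 of the 48, and such pairs leave 46 distinct profiles in the core set. ENSRNOT00000026920.6 had the largest fall, from 3888, 2154.5, 2328, 2051 and 2017 CPM in skin to 755, 608, 530 and 614 CPM in hippocampus. Its log2 fold change was -1.95 ± 0.24 (SE; adjusted p = 6.73e-05, edgeR). ENSRNOT00000013159.5 had a log2 fold change of -1.91 with a standard error of 0.29 (adjusted p = 0.000529, edgeR). Calls that differed by 2-fold or more numbered 5, or 10.4% of the set against 5.65% of all transcripts. Without the libraries numbered 4 and 5 the number called was 14, and all of the 9 were kept. That count is given without the share of all transcripts, so a shift of the core set alone cannot be read. DESeq2 called 14 (13.7% of all transcripts) and limma voom 19 (22.7%).

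**Figure D4:**
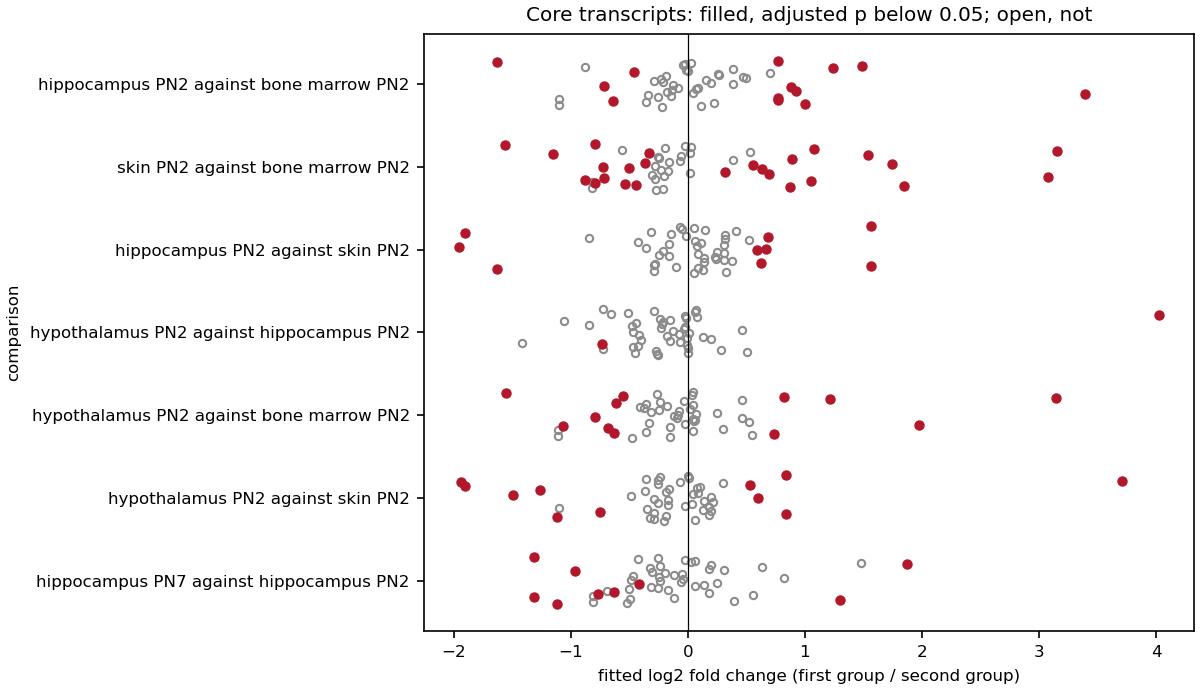
Fitted log2 fold changes of the 48 core transcripts in 7 comparisons, positive where the first group named is higher; filled points have an adjusted p below 0.05 (edgeR) and open points do not. Most points lie within 1 log2 unit of 0, and ENSRNOT00000011342.5 is the far right point of each hypothalamus comparison.

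PN7 and PN2 hippocampus differed in 9 core transcripts, 2 higher and 7 lower at PN7. The share of 18.8% compares with 8.94% of all transcripts, of which 3.43% were higher and 5.51% lower. Differences of 2-fold or more were called in 5, or 10.4% against 4.82%. The rises were ENSRNOT00000013159.5, with a log2 fold change of 1.87 with a standard error of 0.32 (adjusted p = 0.00119, edgeR), and ENSRNOT00000085692.1, with 1.30 ± 0.22 (SE; adjusted p = 0.00137, edgeR). Both moved to the range of skin or close below it. Among the falls, ENSRNOT00000000443.5 and its identical partner ENSRNOT00000078140.1 went to 1037, 1076 and 1062 CPM at PN7, below every PN2 library, a log2 fold change of -1.31 with a standard error of 0.24 (adjusted p = 0.00211, edgeR). PN7 libraries were shallower, with 10329777 to 12870442 counts against 19935250 to 22967152, and the part of depth in these calls was not tested. With DESeq2 size factors the split was 3 higher and 6 lower. Each library left out in turn gave 6 to 8 calls, fewer than the 9. Without the libraries numbered 4 and 5 there were 19 calls, 7 higher and 12 lower. These refits are given without the share of all transcripts, so a shift of the core set alone cannot be read. DESeq2 called 19 (15.1% of all transcripts) and limma voom 26 (21%).

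PN2 hypothalamus differed from PN2 hippocampus in 2 core transcripts, 1 in each direction, or 4.17% of the set against 6.21% of all transcripts (2.49% higher and 3.72% lower). Of these 2, 1 differed by 2-fold or more, 2.08% against 4.43%. ENSRNOT00000011342.5 rose by a log2 fold change of 4.02 with a standard error of 0.54 (adjusted p = 0.000321, edgeR), and this value was 2.98 without hypothalamus replicate 2. ENSRNOT00000073247.2 held 781 and 887 CPM in hypothalamus and 1476, 1217, 1311 and 1417 CPM in hippocampus, a log2 fold change of -0.73 with a standard error of 0.16 (adjusted p = 0.0138, edgeR). Its call was lost without hypothalamus replicate 1, where the log2 fold change was -0.52, and also with only the libraries of both groups in the fit. There were 5 calls with DESeq2, and 8 without the libraries numbered 4 and 5. The shares of all transcripts in these refits are not given here, so a shift of the core set alone cannot be read.

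Against bone marrow, PN2 hypothalamus differed in 12 core transcripts, 5 higher and 7 lower. That is 25% of the set, beside 26.7% of all transcripts (13.4% in each direction). Differences of 2-fold or more were called in 5, or 10.4% against 20.2%. ENSRNOT00000011342.5 rose by a log2 fold change of 3.14 with a standard error of 0.53 (adjusted p = 0.000335, edgeR), and by 2.10 without hypothalamus replicate 2. ENSRNOT00000067539.2 was 3.94-fold higher (adjusted p = 0.00673, edgeR). This call was lost without hypothalamus replicate 2, and also with only the libraries of both groups in the fit. The largest falls were those of ENSRNOT00000001315.6, at 875 and 701 CPM in hypothalamus and a log2 fold change of -1.56 with a standard error of 0.16 (adjusted p = 2.40e-06, edgeR), and of ENSRNOT00000073247.2, with -1.07 ± 0.17 (SE; adjusted p = 0.000161, edgeR). The number called was 3 with the libraries of both groups alone in the fit, and 19 without the libraries numbered 4 and 5. These counts too are given without the share of all transcripts.

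Against skin, PN2 hypothalamus differed in 11 core transcripts, 5 higher and 6 lower, or 22.9% beside 13.1% of all transcripts (6.02% higher and 7.08% lower). Differences of 2-fold or more were called in 6, or 12.5% against 9.68%. With limma voom the number called was 6, beside 2.95% of all transcripts. ENSRNOT00000011342.5 rose by a log2 fold change of 3.71 with a standard error of 0.49 (adjusted p = 0.000120, edgeR), by 2.66 without hypothalamus replicate 2, and by 4.39 without the libraries numbered 4 and 5. ENSRNOT00000000443.5, at 1076 and 1971 CPM in hypothalamus, had a log2 fold change of 0.84 with a standard error of 0.24 (adjusted p = 0.0311, edgeR). This call rests on hypothalamus replicate 2, since without it the value was 0.09 (adjusted p = 0.848, edgeR). It was lost in 9 of 17 alternatives in all. These include leaving out skin replicate 1, 3, 4 or 5 (adjusted p from edgeR between 0.0502 and 0.0592), the replicate number as a block (0.0973), the fit without the libraries numbered 4 and 5 (0.0541), the fit of both groups alone (0.101) and limma voom (0.263). ENSRNOT00000013159.5 held 2648 and 846 CPM and fell by 1.93 on the log2 scale (adjusted p = 0.00326, edgeR). Its log2 fold change was -2.75 without hypothalamus replicate 1 and -1.43 without hypothalamus replicate 2. ENSRNOT00000018695.5 held 1471 and 1246 CPM in hypothalamus and 5736, 4726, 5125, 4845 and 4819 CPM in skin, a log2 fold change of -1.90 with a standard error of 0.43 (adjusted p = 0.00830, edgeR).

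The lone PN7 hypothalamus library was set beside its PN2 counterparts without a test. It lay above both PN2 libraries in 17 core transcripts, below both in 15 and between them in 16. Over all 20521 transcripts tested, 37.8% lay above both, 14.9% below both and 47.4% between them. PN2 is a single pair here, so these counts carry no measure of the spread at either age. ENSRNOT00000067539.2 and ENSRNOT00000023037.5 were among the lower ones, the latter at 2531 CPM. ENSRNOT00000001315.6 was among the higher ones, at 1041 CPM.

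The transcripts most like ENSRNOT00000011342.5 over the 19 libraries were ENSRNOT00000030919.5, with a Pearson r of 0.402 between log2 CPM values, and ENSRNOT00000046102.2, with 0.337. Libraries share depth and groups, so these are descriptions, and no core transcript followed it closely. At the floor of the rule, ENSRNOT00000022892.5 and ENSRNOT00000047450.3 were the members just inside, with lowest values of 506 and 519 CPM, both in hypothalamus replicate 2 of PN2. ENSRNOT00000080676.1 and ENSRNOT00000015198.6 were just outside, with lowest values of 495 and 494 CPM in hippocampus PN2 replicate 2 and skin replicate 4. Including these 2, and leaving the mitochondrial transcripts aside, 141 transcripts averaged at least 500 CPM over the 6 groups but fell below it in some library. With the floor at 250 CPM the set would hold 156 transcripts, and 60.3% of them differed among the 6 groups. At 1000 CPM it would hold 9, of which 66.7% did.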

How the data were processed

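The authors deposited estimated counts per Ensembl transcript for 19 libraries, without normalization between libraries. They were made with kallisto on the rat build Rnor_6.0, per the submitters' processing notes. Version, settings and strand handling: not given in the sources used here. Reads that match several transcripts are divided among them, so near-identical transcripts are uncertain. Core transcripts were found on the unrounded counts. For tests, counts were rounded and fitted with edgeR 4.0.16 under R 4.3.3: filterByExpr, TMM, 1 robust quasi-likelihood fit of 6 group means over all 19 libraries, and Benjamini-Hochberg adjustment over 20521 transcripts. The standard error is the log2 fold change divided by the square root of F. The fit was tested on simulated data. Alternatives were RLE factors, TMM from other transcripts, DESeq2 1.42.0, limma 3.58.1 voom, other filters, a replicate block, and libraries left out. The set and its lists were chosen with earlier results of these data known; marker and pathway lists by symbol could not be applied. Transcripts named were the 6 highest by the mean of group means, and up to 2 largest non-overlapping calls in each direction per comparison. The extremes of range, those at the floor, and those most like ENSRNOT00000011342.5 were also named. Figures used matplotlib 3.10.9.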

Additional observations from a re-analysis of the deposited data

Results flagged for a closer look

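Among 21 named transcripts and the summed share, each looked at in bone marrow, skin and PN2 hippocampus, 11 of 66 sets had a library whose gap to its nearest neighbour was too large a part of the group's range (Dixon's 95% limit). For a single set chance gives about 1 in 20. These sets share libraries, include an identical pair and hold transcripts chosen partly for their range. The 11 is therefore not a test against that rate. Bone marrow replicate 4 accounts for 7. It was low for ENSRNOT00000023037.5, with 3061.9 CPM against 5931.9 to 6388.5 in the other 3 libraries. It was also low for ENSRNOT00000009994.5 (676.48 CPM), ENSRNOT00000037699.3 (892.45 CPM) and ENSRNOT00000006607.5 (817.1 CPM, against 1030.2 to 1069.3). The same library was high for ENSRNOT00000013159.5 (876.86 CPM), ENSRNOT00000026920.6 (1327.7 CPM, against 679.89 to 713.92) and ENSRNOT00000022892.5 (1245.3 CPM).

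Skin replicate 1, the shallowest skin library, was high for 3 transcripts. It held 12188 CPM of ENSRNOT00000085692.1, 9244.4 CPM of ENSRNOT00000013159.5 and 3888.1 CPM of ENSRNOT00000026920.6, for which the other skin libraries held 2016.9 to 2328.4 CPM. Skin replicate 2 was low for ENSRNOT00000017468.2, at 910.62 CPM against 1047.4 to 1069.9. The fold changes reported for ENSRNOT00000013159.5 and ENSRNOT00000026920.6 between skin and other groups kept their direction and call without skin replicate 1.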

How the results depend on the processing

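No named fold change reversed, and 441 of 454 refitted values kept their call. The 13 losses concern 3 hypothalamus calls: ENSRNOT00000000443.5 against skin, ENSRNOT00000073247.2 against hippocampus and ENSRNOT00000067539.2 against bone marrow. The 26 named results were chosen as the largest non-overlapping calls in these data, so most were likely to be kept. The identical ENSRNOT00000000443.5 and ENSRNOT00000078140.1 are also counted separately among them. Numbers of core transcripts called were within 1.5 times of those reported with RLE factors, TMM from other transcripts, no low-count filter and identical transcripts merged. DESeq2 called 14 for PN2 hippocampus against skin, 5 for hypothalamus against hippocampus and 19 for PN7 against PN2. limma voom called 25 for hippocampus against bone marrow, 19 against skin, 26 for PN7 against PN2 and 6 for hypothalamus against skin. The stricter filter called 14 for PN7 against PN2. With only the libraries compared, 14 were called for hippocampus against skin, 3 for hypothalamus against bone marrow and 19 for PN7 against PN2. Without the libraries numbered 4 and 5 these were 14, 19 and 19, and 8 for hypothalamus against hippocampus. The cause of these shifts was not tested. The shares of all transcripts are not set beside these counts, so a shift of the core set alone cannot be read from them. Pairing was looked at through each library's deviations from its group mean in log2 CPM (TMM scale), over the transcripts tested. These deviations correlated above 0.1 between same-numbered libraries of different groups in 7 of 29 pairs. All 3 pairs of number 4 were among them (0.164 to 0.270), while numbers 1 to 3 reached at most 0.141. Pairs with different numbers were not set beside these. Not every same-numbered pair was above 0.1, so the numbers as a whole were not taken to pair samples. For number 4 a link was not tested. With the replicate block, the call of ENSRNOT00000000443.5 between hypothalamus and skin was lost (adjusted p = 0.0973, edgeR), hypothalamus against hippocampus had 5 calls and every other count stayed within 1.5 times.

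Leaving out each library gave 13 to 15 calls for hippocampus against bone marrow, 22 to 29 for skin against bone marrow, 8 to 10 for hippocampus against skin, 6 to 8 for PN7 against PN2, 2 to 4, 5 to 17 and 8 to 10 for hypothalamus against hippocampus, bone marrow and skin, and 25 to 36 for the 6 groups. These counts are given without the share of all transcripts called. A shift of the core set alone cannot be read from them. With each library left out in turn, the core share ran from 10.7% to 11.3% in bone marrow and from 14.7% to 15.2% in skin. It ran from 14.3% to 14.7% and 13.6% to 14.1% in PN2 and PN7 hippocampus, and 16.3% to 25.5% in PN2 hypothalamus. With a 250 CPM floor the share was 18.1% in bone marrow, 27.97% in skin, 29.4% and 26.8% in PN2 and PN7 hippocampus, and 30.8% and 21.3% in PN2 and PN7 hypothalamus. At 1000 CPM it was 5.19%, 9.60%, 9.29%, 8.92%, 16.6% and 9.09% in the same order. Counting the mitochondrial transcripts as members gave 11.9% in bone marrow, 15.1% and 14.6% in PN2 and PN7 hippocampus and 14.0% in PN7 hypothalamus, and leaving them out of the total gave 13.4% there. Bone marrow was lowest under each of these floors and totals.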

Other observations

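ENSRNOT00000077306.1 and ENSRNOT00000087247.1, chosen after their values were seen, have identical values in all libraries and are high in the libraries numbered 4 and 5. Each held 2162, 1787, 2046 and 14208 CPM in bone marrow, and 1250.1, 1226, 1133 and 4137 CPM in PN2 hippocampus, in the order of the replicates. In skin each held 1181, 2076, 1660 CPM in replicates 1 to 3, and 3603 and 3784 CPM in replicates 4 and 5. The 4 libraries with these numbers lay above all others. Relative to the mean of replicates 1 to 3 of the same group, these were the only 2 of the 48 core transcripts more than 1.5-fold higher in all 4 libraries, and 0 were more than 1.5-fold lower in all. In the 3 brain groups without such numbers they ranged from 980 to 2629 CPM. Neither was called in any comparison (adjusted p = 0.201 among the 6 groups, edgeR). The labels do not say whether replicate numbers mark a shared day or pool, and the part of such a link was not tested.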
